A study of Homo sapiens with 2 samples.

Results

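The genes described here encode integrins, the laminin and collagen chains and a few other proteins of the extracellular matrix. They were the rows of the deposited RNA-seq table whose symbol starts with ITGA, ITGB, LAMA, LAMB or LAMC, or with COL and a digit, together with FN1, HSPG2, AGRN, NID1, NID2, SPARC, LUM, TIMP1, TIMP2 and TIMP3, without symbols that hold a hyphen. The rule found 32 of the 11511 genes with values. Of these, 29 are integrin, laminin, collagen or named matrix genes, and 3 (ITGB1BP1, ITGB3BP and COL4A3BP) match by their name only.

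The samples were 1 library of Hep3B cells, an established human hepatocellular carcinoma line, exposed to 25 µM A4368 for 24 h, and 1 library of Hep3B cells labelled as an untreated control. Both cultures were grown in DMEM with fetal bovine serum. A4368 is known here only by this code, and its vehicle is not named in the labels. The study set out to profile transcripts that differ in treated cells, and with 1 library of each kind no difference below has a replicate check or a p-value.

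Integrins are receptors built of an alpha and a beta chain that hold cells to the matrix and pass signals to the cytoskeleton. Laminins, trimers of an alpha, a beta and a gamma chain, form with type IV collagen, nidogen and heparan sulfate proteoglycans the sheet called the basement membrane, while fibrillar collagens and fibronectin make the interstitial matrix. In healthy liver the space beside the hepatocytes holds fibronectin and collagen and little laminin, and laminins and further integrins appear in fibrosis and in carcinoma.

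Values were read as FPKM (fragments per kilobase, relative to all fragments mapped in that library). Levels of different genes can be compared only roughly, since GC content and sequence shared with other genes are not allowed for. Median levels over all genes were 13.5 FPKM with A4368 and 13.3 FPKM in the control, and the read depth is unknown. The liver lineage, though not the line itself, was checked by 13 hepatocyte and hepatoma markers, which all had values and summed to 16600.4 FPKM with A4368 and 17899 FPKM in the control. No endothelial marker of 10 had a value among the rows used. In a bulk library fewer cells of a type and less RNA per cell cannot be told apart.

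The differences between the libraries were about as small as those of all genes, and most were downward. Within 1.2-fold lay 78.1% of the 32 genes and 77.6% of all genes kept. All 32 reached the minimum for the comparison, a mean of 1 FPKM over both libraries. The ratio used was log2((A4368 FPKM + 1)/(control FPKM + 1)), which understates the change of low genes. On that scale 0 of the 32 were higher or lower by at least 1.5-fold, and 0 by 2-fold. Over all 11238 genes kept, 1.08% were higher and 2.12% were lower by 1.5-fold, and 0.116% and 0.436% by 2-fold. Lower values with A4368 were found in 24 of the 32 genes, against 48% of all genes, and higher values in 8, against 52% of all genes. After both libraries were scaled to equal totals with the 50 highest genes left out, which moved the median of all genes up by 0.05 log2 units, 22 of the 32 were lower, against 39.1% of all genes.

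The median ratio of the 32 genes was -0.14 log2 units, and that of all genes was 0.01. It was -0.18 for the 29 without the genes that match by name only. At a smaller limit of 1.2-fold, chosen after it was seen that no gene passed 1.5-fold, 0 were higher and 7 lower, against 11.2% and 11.1% of all genes. These 7 were ITGA5, ITGA2, COL5A2, COL9A3, COL26A1, LUM and TIMP1. The count was 3 after the rescaling, 1 with a pseudocount of 5 and 9 with a pseudocount of 0.1. The genes held 0.194% of all FPKM with A4368 and 0.206% in the control.

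The size of these differences can be set beside that of other genes of like level. The ratios of the 3447 genes at 20 to 100 FPKM had a median of -0.01 and an SD of 0.21 log2 units, and 9 of the 11 matrix and receptor genes in that range lay between their 10th and 90th percentiles. Among the 2476 genes at 1 to 5 FPKM the SD was 0.34, and 8 of 9 lay between the same percentiles, as did 8 of 10 in the class of 5 to 20 FPKM. The 2 genes above 100 FPKM, FN1 and ITGB1, both lay between the percentiles of that class.

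**Figure D1:**
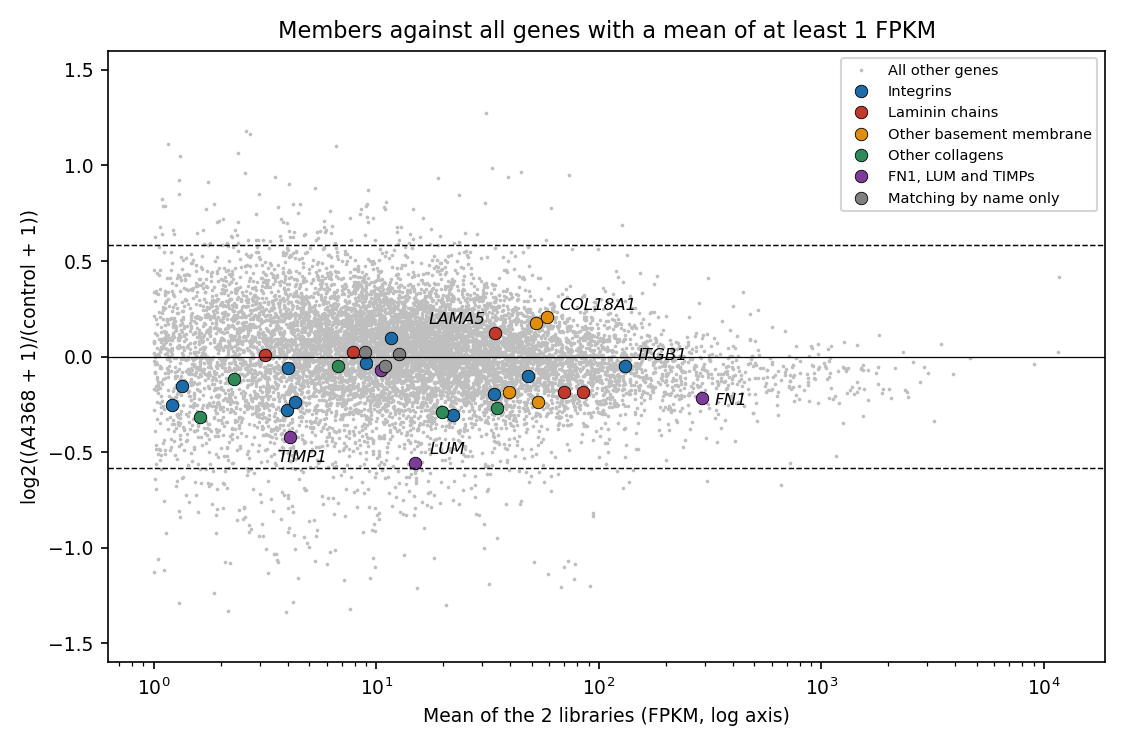
Each point is a gene, at the mean of the 2 libraries in FPKM (log axis) and its log2 ratio of A4368 over control with a pseudocount of 1. Grey points are the other genes kept, of which 14 lie outside the plotted range, coloured points are the 32 genes by class, and dashed lines mark 1.5-fold. No coloured point lies beyond the dashed lines, LUM at -0.55 coming nearest.

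The integrin genes, the receptors of the set, had 11 members with values. Of these 10 were lower and 1 higher with A4368 as deposited, where 48% of all genes were lower. After the rescaling 8 were lower and 3 higher, where 39.1% of all genes were lower. Their median was -0.15 as deposited, and none passed 1.5-fold. The most abundant was ITGB1, the beta chain shared by most matrix-binding integrins, at 129 FPKM with A4368 and 133 FPKM in the control. It made up 77.8% of the summed level of the 4 beta chains with A4368 and 75.7% in the control. The ratio of ITGB1 was -0.05 as deposited and 0.00 after the rescaling, so its direction was not stable.

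The other beta chains were lower in the A4368 library under all scalings run. ITGB5, which pairs with the alphaV chain to bind vitronectin, was at 31.6 FPKM with A4368 and 36.4 FPKM in the control, a log2 ratio of -0.20. ITGB4, the partner of alpha6 in hemidesmosomes, was at 3.87 FPKM with A4368 and 4.75 FPKM in the control (log2 ratio -0.24). ITGB3 stood at 1.21 FPKM with A4368 and 1.46 FPKM in the control, and 51.0% of its 31-base words also lie in another annotated transcript, so that its level is uncertain.

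Among the alpha chains that bind the RGD motif of fibronectin and vitronectin, ITGAV was the most abundant alpha chain measured, at 46.5 FPKM with A4368 and 50.01 FPKM in the control (log2 ratio -0.10). ITGA5, the alpha chain of the main fibronectin receptor, was at 19.6 FPKM with A4368 and 24.5 FPKM in the control. Its log2 ratio was -0.30, and 8.67% of all genes had a lower ratio. The level of ITGA5 per ITGB1 was 0.153 with A4368 and 0.184 in the control.

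The laminin-binding chain ITGA6 was the integrin with a higher value, at 12.1 FPKM with A4368 and 11.2 FPKM in the control (log2 ratio 0.10). The collagen-binding chains were led by ITGA1 at 8.86 FPKM with A4368 and 9.08 FPKM in the control, a ratio of -0.03 that turned to 0.01 after the rescaling. ITGA2, the other collagen-binding chain measured, was at 3.51 FPKM with A4368 and 4.47 FPKM in the control (log2 ratio -0.28). ITGA1 and ITGA2 bind the same kind of ligand, and ITGA2 had the lower ratio. With a pseudocount of 5 the ITGA2 ratio was -0.16. As deposited it lay above -0.38, the 10th percentile of the genes at 1 to 5 FPKM.

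Of the integrin chains best known from leukocytes, ITGAE was at 3.92 FPKM with A4368 and 4.12 FPKM in the control. ITGAL was at 1.01 FPKM with A4368 and 1.40 FPKM in the control, and ITGB2, its partner, had no value among the rows used. Of 14 leukocyte markers 3 had values (CD14, CD68 and LYZ), summing to 39.9 FPKM with A4368 and 50.1 FPKM in the control, while PTPRC had none. Most of that difference was LYZ, at 9.48 FPKM with A4368 and 17.6 FPKM in the control. Their part in the ITGAL values was not tested.

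**Figure D2:**
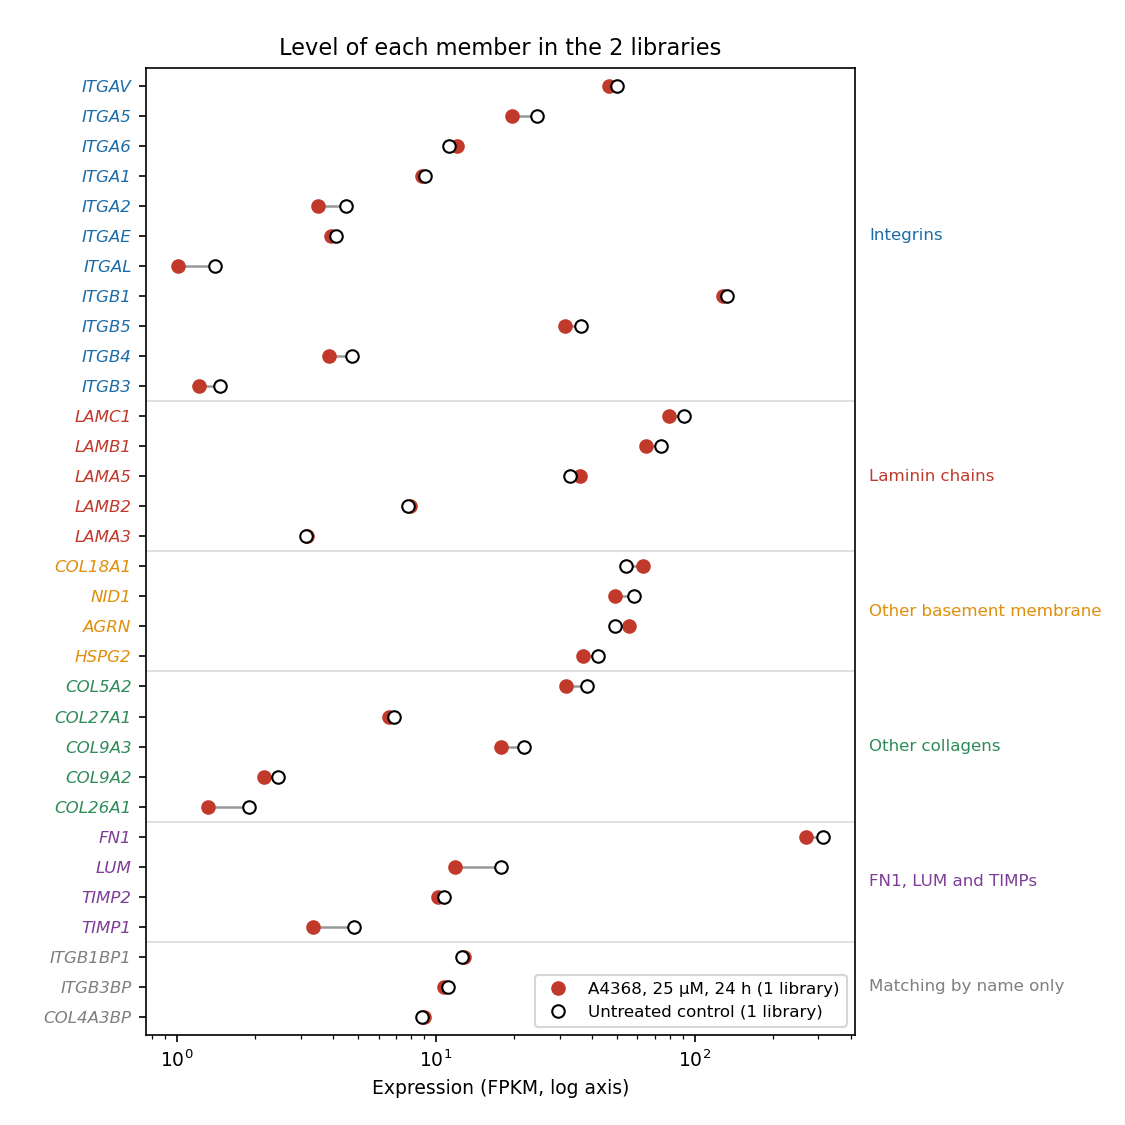
Expression of each of the 32 genes in FPKM (log axis), with filled points for the A4368 library and open points for the untreated control, 1 library each and no error. The filled point lies left of the open one in 24 genes, and the levels span from ITGAL, at 1.01 FPKM with A4368 and 1.40 FPKM in the control, to FN1, at 268 FPKM with A4368 and 312 FPKM in the control.

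Laminin chains had 5 members with values, and their ratios lay on both sides of 0. To show sequence upstream of these chains, the 250 bases before the start listed in the RefSeq promoter table (GRCh38.p14) are given for each, 5′ to 3′ on the gene's strand, with matches to searched motifs in capitals. They are chr18:23872770-23873019 on the plus strand for LAMA3, chr20:62367313-62367562 on the minus strand for LAMA5, chr7:108003162-108003411 on the minus strand for LAMB1, chr3:49133051-49133300 on the minus strand for LAMB2 and chr1:183023170-183023419 on the plus strand for LAMC1. The LAMA3 window lies inside the RefSeq gene, before an internal start, and the bases after the LAMC1 start were not found in a GENCODE transcript of that gene, as they were for 18 of 24 genes of the set. Which starts Hep3B cells use was not measured.
LAMA3: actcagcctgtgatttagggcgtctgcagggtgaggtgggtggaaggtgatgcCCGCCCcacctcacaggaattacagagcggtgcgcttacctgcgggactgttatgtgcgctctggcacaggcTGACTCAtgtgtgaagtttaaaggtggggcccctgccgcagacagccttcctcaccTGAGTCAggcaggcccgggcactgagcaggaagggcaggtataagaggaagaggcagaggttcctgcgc
LAMA5: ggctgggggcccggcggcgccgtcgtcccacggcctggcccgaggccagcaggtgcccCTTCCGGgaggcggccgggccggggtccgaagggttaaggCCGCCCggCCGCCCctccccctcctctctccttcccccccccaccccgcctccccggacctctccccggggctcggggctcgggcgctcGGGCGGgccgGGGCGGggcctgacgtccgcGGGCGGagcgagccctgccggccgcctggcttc
LAMB1: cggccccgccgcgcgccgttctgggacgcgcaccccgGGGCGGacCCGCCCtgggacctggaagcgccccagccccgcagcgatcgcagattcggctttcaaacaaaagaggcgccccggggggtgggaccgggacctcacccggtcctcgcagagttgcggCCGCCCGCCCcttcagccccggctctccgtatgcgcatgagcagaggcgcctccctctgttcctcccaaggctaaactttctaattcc
LAMB2: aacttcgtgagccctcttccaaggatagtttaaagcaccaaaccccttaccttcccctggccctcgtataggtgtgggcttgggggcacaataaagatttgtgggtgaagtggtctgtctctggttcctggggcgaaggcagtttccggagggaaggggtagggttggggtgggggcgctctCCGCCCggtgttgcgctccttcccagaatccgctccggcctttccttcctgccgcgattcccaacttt
LAMC1: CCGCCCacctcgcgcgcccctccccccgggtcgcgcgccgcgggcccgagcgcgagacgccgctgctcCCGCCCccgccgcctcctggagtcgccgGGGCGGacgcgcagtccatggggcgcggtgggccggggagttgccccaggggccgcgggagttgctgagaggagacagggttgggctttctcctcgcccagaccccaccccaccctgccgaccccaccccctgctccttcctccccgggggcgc

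The capitals mark the GC box GGGCGG, the AP-1 motif TGANTCA and the ETS motif CCGGAAG on either strand. The TEAD motif GGAATG and the TATA box TATAAA were searched too and had no match in these 5 windows. LAMA5 held 5 GC boxes and 1 ETS motif, LAMB1 4 GC boxes of which a pair overlap, LAMC1 3 and LAMB2 1. LAMA3 held 1 GC box and 2 AP-1 motifs. GC content was 82.8% in LAMA5, 79.6% in LAMC1, 70.4% in LAMB1, 60.4% in LAMA3 and 58.4% in LAMB2.

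Over 27305 promoters of the same length in the RefSeq table, a GC box lay in 42.3%, an AP-1 motif in 6.60%, an ETS motif in 8.82%, a TEAD motif in 11.9% and a TATA box in 11.1%. Over the 9037 of these whose gene is in the expression table, the shares were 68.4% for the GC box, 3.45% for AP-1, 17.1% for ETS, 9.36% for TEAD and 4.86% for the TATA box. Of the 32 genes 24 had a promoter in that table. A GC box lay in 18 of these 24 (75%). The AP-1 motif lay in 1 of the 24 (LAMA3), the TEAD motif in 2 (ITGA5 and ITGB1), the ETS motif in 3 (ITGB1BP1, ITGB5 and LAMA5, 12.5%) and the TATA box in 1 (ITGA6). These matches describe the sequence and show no binding.

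LAMC1, the gamma chain found in most laminins, was the most abundant laminin gene, at 79.6 FPKM with A4368 and 90.5 FPKM in the control. LAMB1, the beta chain that joins it, was at 64.9 FPKM with A4368 and 74.0 FPKM in the control. Their log2 ratios were -0.18 and -0.19, and the level of LAMB1 per LAMC1 was 0.816 with A4368 and 0.817 in the control. Thus both chains were lower by nearly the same factor.

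The alpha chain LAMA5, which assembles with the products of LAMB1 and LAMC1, went the other way as deposited. It was at 35.9 FPKM with A4368 and 32.8 FPKM in the control, a log2 ratio of 0.13. After a correction for GC content and transcript length its ratio was 0.01. The level of LAMA5 per LAMB1 was 0.552 with A4368 and 0.443 in the control, and per LAMC1 it was 0.451 with A4368 and 0.362 in the control. In both libraries the alpha chains measured were below the beta and gamma chains, with sums of 39.0 FPKM for alpha, 72.9 FPKM for beta and 79.6 FPKM for gamma with A4368, and 35.9, 81.8 and 90.5 FPKM in the control.

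LAMB2, the alternative beta chain, was at 7.95 FPKM with A4368 and 7.82 FPKM in the control. LAMA3, the alpha chain of epithelial anchoring laminin, was at 3.17 FPKM with A4368 and 3.14 FPKM in the control. The ratios of LAMB2 and LAMA3 were 0.02 and 0.01, within 0.1 log2 units of 0, and that of LAMA3 was just below 0 after a correction for GC content and transcript length.

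The other basement membrane genes also lay on both sides. NID1, which encodes nidogen and links laminin to collagen IV, was at 49.0 FPKM with A4368 and 58.1 FPKM in the control (log2 ratio -0.24). HSPG2, which encodes perlecan, was at 36.9 FPKM with A4368 and 42.1 FPKM in the control (log2 ratio -0.19). AGRN, which encodes agrin, a second heparan sulfate proteoglycan, was higher at 55.6 FPKM with A4368 and 49.1 FPKM in the control (log2 ratio 0.18). The level of AGRN per HSPG2 was 1.51 with A4368 and 1.17 in the control.

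COL18A1, the collagen XVIII chain that gives rise to endostatin, had the highest ratio of all 32 genes, 0.21 log2 units. It was at 62.9 FPKM with A4368 and 54.3 FPKM in the control, and 83.7% of all genes had a lower ratio. COL18A1 shares 14.8% of its words with other genes, the highest share after ITGB3 and ITGB1BP1. None of the collagen IV chains had a value among the rows used. Of the 9 laminin and other basement membrane genes together, 5 were higher and 4 lower, near the 52% and 48% of all genes, with a median of 0.01.

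Of the 5 higher genes, COL18A1, AGRN, LAMA5 and LAMB2 have transcripts of high GC content, at 67.2%, 67.5%, 66.4% and 60.3%, and LAMA3, with the smallest ratio, stands at 50.7%. Over all genes the median ratio was 0.05 in the 1713 with at least 60% GC, -0.01 in the 5179 with 45 to 60% and 0.02 in the 4303 below 45%. Corrected for GC content and length, a setting chosen after the data were seen, the ratios were 0.01 for LAMA5, 0.06 for AGRN and 0.10 for COL18A1, each nearer to 0 than as deposited. HSPG2, at 64.5% GC, was lower in both, at -0.19 as deposited and -0.28 corrected. Of the 10 genes of the set with at least 60% GC, 4 were higher. The correction took GC content and length together, and the part of GC content in these ratios was not tested.

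The remaining collagens were lower throughout, where 48% of all genes were lower as deposited. COL5A2, a chain of fibrillar collagen V, was at 31.7 FPKM with A4368 and 38.4 FPKM in the control (log2 ratio -0.27). COL27A1, a further fibrillar collagen, was at 6.59 FPKM with A4368 and 6.85 FPKM in the control, a ratio of -0.05 as deposited and -0.01 after the rescaling. The fibrillar collagens COL1A1, COL1A2 and COL3A1, typical of stellate cells and fibroblasts, had no value among the rows used.

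Collagen IX, which decorates the surface of fibrils in cartilage, was represented by 2 chains. COL9A3 was at 17.8 FPKM with A4368 and 21.9 FPKM in the control (log2 ratio -0.29). COL9A2 was at 2.17 FPKM with A4368 and 2.45 FPKM in the control (log2 ratio -0.12). COL26A1, a minor collagen, was at 1.32 FPKM with A4368 and 1.89 FPKM in the control, and its log2 ratio was -0.32, or -0.13 with a pseudocount of 5. Because COL18A1 was higher and the others lower, COL18A1 made up 51.4% of the summed collagen level with A4368 and 43.1% in the control, and COL5A2 25.9% with A4368 and 30.5% in the control.

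FN1, which encodes fibronectin, was the most abundant of the 32 genes. It was at 268 FPKM with A4368 and 312 FPKM in the control, a log2 ratio of -0.22 as deposited and -0.17 after the rescaling. Its share of the summed level of the 29 genes was 26.5% with A4368 and 28.1% in the control. Fibronectin, its receptor chain ITGA5 and the collagen V chain were all lower as deposited and under each other scaling run. They were grouped after their values were seen, and 48% of all genes were lower as deposited. ITGB1, the partner of ITGA5, had a ratio of -0.05 as deposited and 0.00 after the rescaling. For COL27A1, the other fibrillar collagen measured, the ratios were -0.05 and -0.01.

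LUM, which encodes the small leucine-rich proteoglycan lumican that regulates collagen fibrils, had the lowest ratio of the set. It was at 11.9 FPKM with A4368 and 17.9 FPKM in the control, 1.51-fold lower as a plain ratio and -0.55 on the log2 scale with a pseudocount of 1, and 2.45% of all genes had a lower ratio. It passed the 1.5-fold limit with a pseudocount of 0.1 and after the correction for GC content and length, both at -0.59. LUM is also a marker of stellate cells and fibroblasts. Of 13 such markers 3 had values (LUM, PDGFRA and RGS5), summing to 14.2 FPKM with A4368 and 19.9 FPKM in the control, most of it LUM, while ACTA2, DCN, PDGFRB and the collagens above had none. PDGFRA was lower, as LUM was, at 0.692 FPKM with A4368 and 0.984 FPKM in the control. RGS5 was higher, at 1.64 FPKM with A4368 and 0.977 FPKM in the control. Both are low values, and the part of such cells in the LUM values was not tested.

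The TIMP genes encode inhibitors of matrix metalloproteinases. TIMP1 was at 3.35 FPKM with A4368 and 4.83 FPKM in the control, 1.44-fold lower as a plain ratio and -0.42 on the log2 scale, the ratio next to LUM. TIMP2, the more abundant, was at 10.2 FPKM with A4368 and 10.8 FPKM in the control (log2 ratio -0.07). The level of TIMP1 per TIMP2 was 0.328 with A4368 and 0.449 in the control.

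The 3 genes that match by name only had small ratios. ITGB1BP1, whose product binds the tail of integrin beta1, was at 12.8 FPKM with A4368 and 12.7 FPKM in the control, and it shares 33.2% of its words with other genes. ITGB3BP, which encodes a centromere protein, was at 10.7 FPKM with A4368 and 11.1 FPKM in the control. COL4A3BP, which encodes the ceramide transfer protein, was at 8.96 FPKM with A4368 and 8.80 FPKM in the control, and its ratio of 0.02 was just below 0 after the correction for GC content and length.

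**Figure D3:**
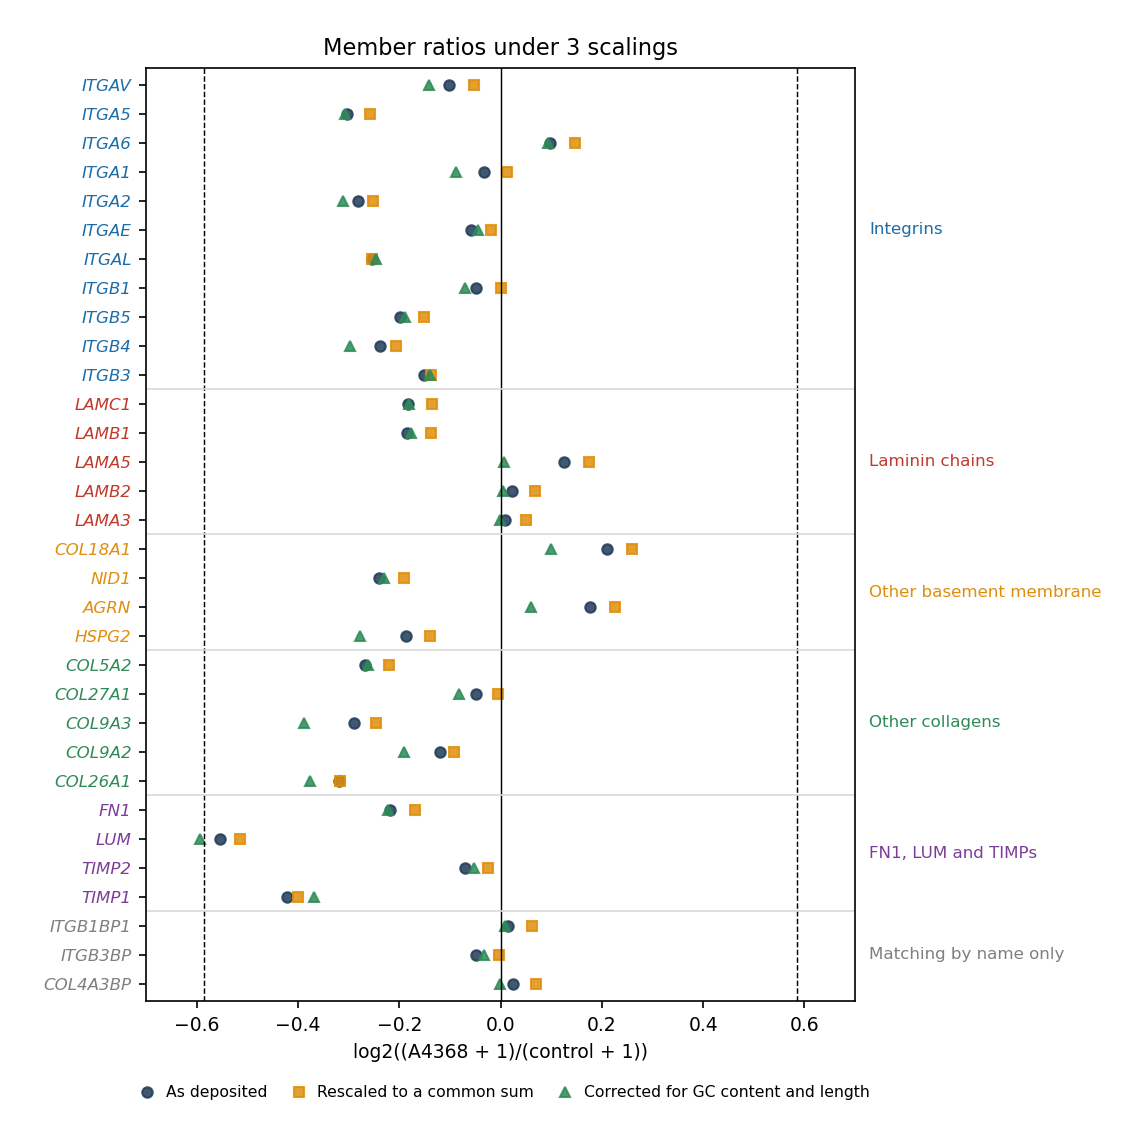
log2 ratio of A4368 over control with a pseudocount of 1 for each of the 32 genes, as deposited (circles), after both libraries were scaled to equal totals with the 50 highest genes left out (squares) and after correction for GC content and length (triangles). Dashed lines mark 1.5-fold. ITGA1 and ITGB1 change sign with the rescaling, LAMA3 and COL4A3BP with the correction, and LAMA5 falls to 0.01 with the correction.

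Genes that act with these proteins were taken as 5 lists, chosen with earlier results of these data known. Of 32 focal adhesion and integrin signalling genes searched, 26 were measured at a mean of at least 1 FPKM. Of these 21 were lower as deposited, against 48% of all genes, and 19 after the rescaling, against 39.1% of all genes. Their median was -0.14, and 2 were lower by 1.5-fold, against 2.12% of all genes. NEDD9, a scaffold of the Cas family that acts downstream of integrins, was at 9.21 FPKM with A4368 and 17.1 FPKM in the control (log2 ratio -0.82). ZYX, which encodes the focal adhesion protein zyxin, was at 48.0 FPKM with A4368 and 74.6 FPKM in the control, and its ratio of -0.62 was -0.58 after the rescaling, inside the limit. VASP, an actin regulator recruited by zyxin, was at 42.8 FPKM with A4368 and 61.2 FPKM in the control (log2 ratio -0.51). On the same scale with a pseudocount of 1, the integrin ratios reached down to -0.30. TNS1, which encodes tensin, was at 1.09 FPKM with A4368 and 2.09 FPKM in the control, and its ratio of -0.56 was -0.59 after the rescaling, past the limit, and -0.22 with a pseudocount of 5.

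Other matrix receptors had 11 measured genes, 9 of them lower as deposited (48% of all genes) and 7 after the rescaling (39.1% of all genes), with a median of -0.07 and none past 1.5-fold. DDR1, a receptor tyrosine kinase for collagen, was at 7.67 FPKM with A4368 and 10.6 FPKM in the control (log2 ratio -0.43). The syndecan genes SDC3 and SDC4 had log2 ratios of -0.29 and -0.25. RPSA, which encodes a ribosomal protein also described as a laminin receptor, was at 315 FPKM with A4368 and 371 FPKM in the control.

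Genes of collagen folding, modification and crosslinking were split, with 11 higher and 12 lower of 23, against 52% and 48% of all genes, and a median of -0.02. By 1.5-fold 2 were lower and 0 higher, against 2.12% and 1.08% of all genes. The genes past that limit were LOXL4 and LOX, lysyl oxidase genes whose products crosslink collagen outside the cell. LOXL4 was at 37.2 FPKM with A4368 and 57.05 FPKM in the control, and its ratio of -0.60 was -0.56 after the rescaling, inside the limit. LOX was at 3.29 FPKM with A4368 and 5.68 FPKM in the control (log2 ratio -0.64, or -0.37 with a pseudocount of 5). A further lysyl oxidase gene, LOXL2, had a mean below 1 FPKM and was not counted, with a higher value of 1.07 FPKM with A4368 and 0.7497 FPKM in the control. On the other side were TMEM38B, an ion channel gene of the endoplasmic reticulum, at 19.3 FPKM with A4368 and 14.0 FPKM in the control, and MIA3, which helps export procollagen, at 18.2 FPKM with A4368 and 13.6 FPKM in the control.

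Matrix proteases and their inhibitors had 22 measured genes with a median of -0.01. Of these 13 were lower as deposited, against 48% of all genes, and 8 after the rescaling, against 39.1% of all genes. By 1.5-fold 1 was higher and 2 were lower, against 1.08% and 2.12% of all genes. MMP17, a membrane-anchored metalloproteinase gene, was higher at 5.86 FPKM with A4368 and 3.08 FPKM in the control (log2 ratio 0.75). ADAMTS1, a secreted protease gene, was at 2.66 FPKM with A4368 and 5.35 FPKM in the control (log2 ratio -0.79). TIMP4 was at 1.37 FPKM with A4368 and 2.74 FPKM in the control (log2 ratio -0.66), so that the 3 TIMP genes measured were all lower. With a pseudocount of 5, MMP17, ADAMTS1 and TIMP4 lay inside the 1.5-fold limit, at 0.43, -0.43 and -0.28.

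Other matrix glycoproteins and proteoglycans had 33 measured genes, of which 27 were lower as deposited (48% of all genes) and 24 after the rescaling (39.1% of all genes), with a median of -0.16. The largest difference was in THBS1, which encodes thrombospondin, a glycoprotein that binds integrins and CD47. It was at 32.5 FPKM with A4368 and 69.7 FPKM in the control, a log2 ratio of -1.08. With a pseudocount of 1 it was the gene of these 5 lists that passed 2-fold, where 0.436% of all genes were lower by 2-fold. With a pseudocount of 5 its ratio was -0.99, inside that limit. SPOCK2, a testican gene, was at 1.08 FPKM with A4368 and 2.56 FPKM in the control (log2 ratio -0.77, or -0.31 with a pseudocount of 5 and -1.17 with 0.1). BGN, which encodes biglycan, a relative of lumican, was at 3.17 FPKM with A4368 and 5.09 FPKM in the control. TGM2, the transglutaminase that crosslinks fibronectin, was at 2.52 FPKM with A4368 and 3.91 FPKM in the control.

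**Figure D4:**
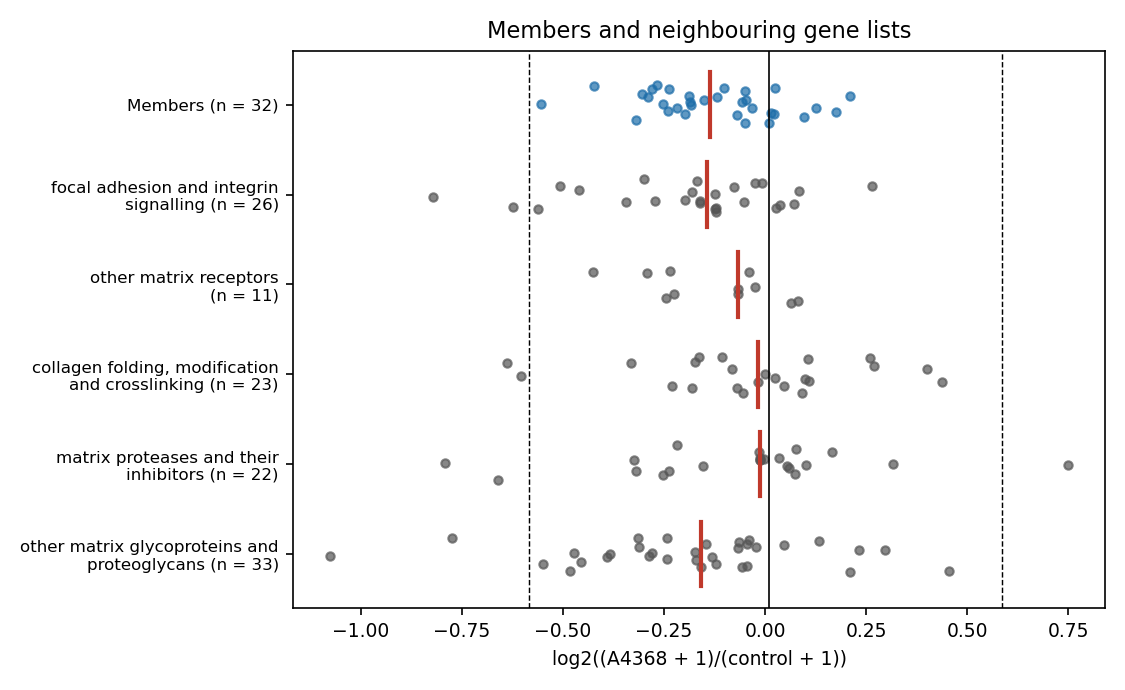
log2 ratio of A4368 over control with a pseudocount of 1 (horizontal) for the 32 genes and for the measured genes of 5 neighbouring lists, 1 point per gene with vertical scatter for visibility. Red bars are medians, the solid line the median of all genes (0.01) and dashed lines 1.5-fold. The medians run from -0.16 to -0.01, and THBS1 at -1.08 is the lowest point.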

How the data were processed

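RNA-seq was measured in 1 library of A4368-treated and 1 library of untreated Hep3B cells. Per the submitters' processing notes, the authors used the build hg19 with Bowtie2 2.2.3, TopHat2 2.0.12 and Cufflinks. The deposited values carry no unit in their header and were read as FPKM, as Cufflinks estimates them. Neither the annotation nor a rule for low genes is given in the sources used here, and the lowest mean was 0.496 FPKM. Both values and a symbol stood in 11511 of 24302 lines.

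Computed here were the plain ratio and log2((A4368 FPKM + 1)/(control FPKM + 1)) for the 11238 genes whose mean reached 1 FPKM. The values carry no counts, so depth is unknown and no interval was given. Limits of 1.5-fold and 2-fold described size, without any test. The genes and lists were chosen with earlier results of these data known. All integrin, laminin and basement membrane genes were named, with up to 3 of each further class and, from each neighbouring list, the 4 with the largest absolute ratio, of which 1 is not reported here. Genes outside this rule were chosen after their values were seen.

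In the gene rule the digit was required after COL alone. The alternatives were a filter at 5 FPKM or none, a pseudocount of 0.1 or 5, subtracting the median ratio of genes at 10 FPKM or more, scaling both libraries to equal totals with the 50 highest genes left out, a digit after every prefix, and leaving out the 3 genes that match by name only. Chosen after seeing the data were the 1.2-fold limit and a lowess correction for GC content and length (statsmodels 0.14.6), from the longest coding transcript of each gene in GENCODE release 29, which matched 99.6% of the genes kept. Shared 31-base words were sought between all transcripts of a gene in that release and those of other genes, on either strand. Promoters are RefSeq's. The code for the ratio and limits was run on simulated data with changes set well past the 1.5-fold limit. That run checked the code only, because its spread was set and not taken from these libraries. Python 3.11.15, numpy 2.4.6 and pandas 2.3.3 were used.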

Additional observations from a re-analysis of the deposited data

How the results depend on the processing

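The count of genes of the set that were lower by 1.5-fold was 0 as reported and 1, LUM, with a pseudocount of 0.1 and after the correction for GC content and length. It was 0 under the other alternatives, and the count higher by 1.5-fold was 0 under all of them. The median ratio lay between -0.18 and -0.07, below the median of all genes under each setting. At 1.2-fold, 7 genes were lower as reported, 9 with a pseudocount of 0.1, 4 at a filter of 5 FPKM, 3 after the rescaling, 1 with a pseudocount of 5 and 8 after the correction for GC content and length. With a digit required after every prefix, 21 genes were lower and 8 higher. No paired analysis was possible because each group holds 1 library. The depth is unknown and the spread between cultures was not measured, which limits every difference given.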
